A study of Mus musculus with 2 samples.

Results

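The 39 Hox genes of the mouse, all protein-coding genes named Hoxa, Hoxb, Hoxc or Hoxd with a number in GENCODE M21, were examined among 21851 protein-coding genes with a start site in that annotation. They comprise 11 genes in the Hoxa cluster, 10 in Hoxb, 9 in Hoxc and 9 in Hoxd, and all 39 were found. DNase-seq, which marks DNA that the enzyme DNase I can cut because nucleosomes leave it open, was run on gastrocnemius, the large calf muscle of the hindlimb. The material came from 2 male mice of strain B6CASTF1/J, an F1 hybrid of C57BL/6J and CAST/EiJ, aged 36 days, with 1 library per animal, named replicate 1 and replicate 2 here. The labels number the animals separately but give them a common donor identifier, and they describe whole tissue with no sorting of cells. There is 1 group, so nothing was compared between conditions and no test over samples was possible; every value below is given for each library.

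Hox genes encode homeodomain transcription factors that give embryonic cells their position along the body axis and along the limb. Genes with the same number in different clusters are paralogues, and their order along the chromosome matches the order in which they are used, from anterior low numbers to posterior high numbers. Inactive stretches are held by Polycomb complexes, active stretches carry Trithorax marks, and CTCF, a DNA-binding protein that positions chromatin loop boundaries, is known to bind between Hox genes. Cells of adult limbs, muscle stem cells and connective tissue cells among them, are known to keep Hox patterns of their embryonic position, and posterior genes are those used in limbs.

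Each library has a shorter and a longer list of peaks. The shorter lists hold 50760 peaks for replicate 1 and 49230 for replicate 2, the footprint lists hold 155037 and 234134 protected stretches, and the sequencing depth behind them is unknown. Peak signal values are the authors' own and are ranked here within a library, as the percent of that library's shorter list at or below the value, since no source used here gives their scaling between libraries. A promoter peak in both libraries was listed for 54.2% of coding genes. It was listed for 4 of 5 myofibre genes and 3 of 3 genes of fibro-adipogenic progenitors, the connective tissue cells of muscle, counts too small to set apart from that share. Myh4, the myosin of the fastest fibres, was in the longer lists alone. Both satellite cell markers, Pax7 and Myf5, had one in replicate 2 alone, at 0.907 and 0.664, and none of 3 macrophage and none of 2 adipocyte markers had one. Of tenocyte markers 1 of 2 was open in both libraries, and 1 of 3 was for each of endothelium, smooth muscle and pericytes, and Schwann cells. The endothelial markers Pecam1 and Cdh5 were in both longer lists. In tissue of mixed cells, fewer cells with an open site and a less open site in every cell cannot be told apart.

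Sites with wide protected stretches are shown first, chosen by width and by the letters they held. A footprint is a short stretch inside open DNA that is cut less than its surroundings, and a shared footprint here is the stretch lying inside footprints of both libraries. The windows searched were the 4 clusters with 50 kb on either side. In them, 11 shared footprints inside regions with a peak of both libraries were at least 18 bp wide. Of these, 6 held the letters AGNNGGC on one strand, a loosened form of the core of the sequence that CTCF is known to bind. The 5 shared footprints of at least 26 bp all held it. For 5 of the 6, each line gives 30 bases around that core, 5′ to 3′ in the orientation of the core, with the 7 core letters in capitals.
Hoxc9 to Hoxc8: caagtgaacgcgAGGTGGCgctgttgctca
Hoxa10 promoter: gcagccgccacgAGATGGCgcactcccgat
Hoxa11 to Hoxa13: cttgtcaacacgAGGTGGCgcccttgatct
Hoxd8 to Hoxd4: gctttgtccaggAGGAGGCgctgtaggaca
Hoxb9 to Hoxb8: acagtggccgctAGATGGCatccttgctcc
In mm10 these lie at chr15:102987586-102987615, chr6:52240530-52240559 on the minus strand, chr6:52257114-52257143, chr2:74715914-74715943 and chr11:96278941-96278970, the others on the plus strand.

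The 6 sites were spread over all 4 clusters. Their footprints were 28, 28, 26, 32 and 20 bp wide in the order of the lines above, and 28 bp at the Hoxc10 promoter. Genome-wide, 30.8% of the 17497 shared footprints of at least 18 bp held the core, as did 42.2% of the 6276 of at least 26 bp, and among narrower shared footprints the share was 3.33% in the Hox windows (1 of 30) and 3.68% in the genome. The narrower stretches had a median width of 10 bp in the Hox windows and 8 bp in the genome. They leave little room for a 7-letter word, so their low share follows in part from width. The limits of 18 and 26 bp and the 7-letter core were chosen after the sequences had been seen. A CTCF consensus of 12 letters, with 1 mismatch allowed, was met in the footprints at the Hoxa10 promoter and from Hoxb9 to Hoxb8. The other sites of the 6 did not meet it. Over a whole 200 bp window at each region's centre the core is common, in 15 of 22 Hox regions (68.2%) and in 66.9% of 32662 regions of the genome, so the letters alone set nothing apart.

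**Figure D1:**
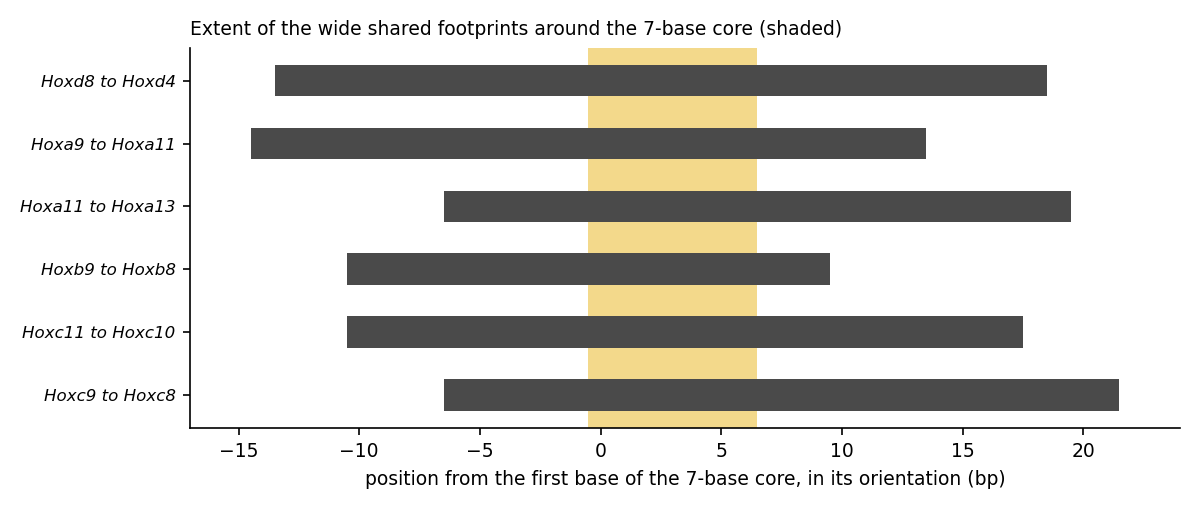
Extent of the 6 wide shared footprints that hold the letters AGNNGGC, each drawn as a bar around the core (shaded), in bp from the first core base in the orientation of the core. All 6 stretches cover the core whole because they were chosen for holding it, and their widths run from 20 to 32 bp.

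A promoter peak in both libraries was found at 9 of 39 Hox genes (23.1%), where a promoter is 500 bp either side of a start site. Over all coding genes the share was 54.2%. They included Hoxa4, Hoxa7, Hoxa9, Hoxa10, Hoxc10, Hoxc13, Hoxd8 and Hoxd9. Another 9 had a peak in replicate 2 alone (Hoxa3, Hoxa5, Hoxa6, Hoxa11, Hoxb7, Hoxc5, Hoxc9, Hoxc11 and Hoxd3), a state held by 2.88% of coding genes, and 1, Hoxd10, had a peak in replicate 1 alone, against 1.59% of coding genes. The other 20 had no promoter peak in either shorter list. Replicate 2 thus listed 18 open Hox promoters and replicate 1 listed 10; in Hoxd each listed 3.

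By cluster, the genes open in both libraries were 5 of 11 in Hoxa, 0 of 10 in Hoxb, 2 of 9 in Hoxc and 2 of 9 in Hoxd. By position along the axis, they included 3 of 15 central genes (paralogues 4 to 8) and 5 of 16 posterior genes (9 to 13). Paralogue groups 9 and 10 each had 2 open members, Hoxa9 and Hoxd9 in one and Hoxa10 and Hoxc10 in the other. No member of groups 5, 6, 11 and 12 was open in both libraries.

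Most Hox promoters are rich in CpG, the dinucleotide of promoter islands, which are usually open in any tissue. By an observed to expected CpG ratio of at least 0.6, 27 of the 39 promoters were CpG-rich, including all 11 of Hoxa. Of these 27, 8 (29.6%) had a peak in both libraries, against 87% of the 11063 CpG-rich coding promoters. A further 7 had one in replicate 2 alone, a state seen at 3.11% of CpG-rich coding promoters. Of the 12 Hox promoters below the ratio, 1 was open in both libraries, Hoxc10 at 0.594.

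**Figure D2:**
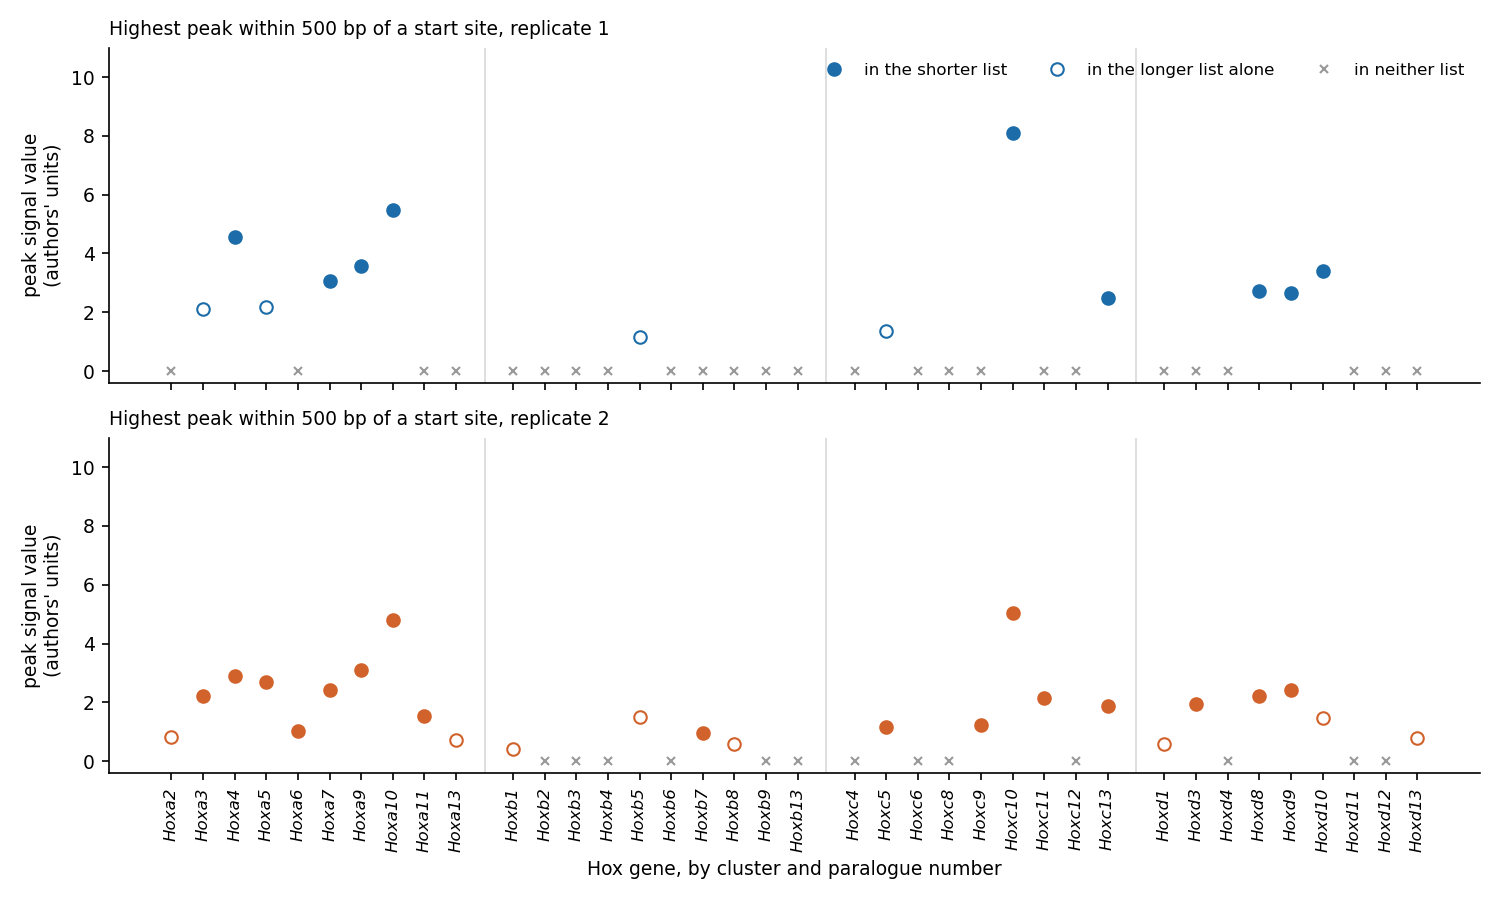
Highest peak signal value (authors' units) within 500 bp of a start site of the basic annotation for the Hox genes described, in replicate 1 (upper) and replicate 2 (lower); filled points are in the shorter list, open points in the longer list alone, crosses in neither. Hoxc10 is highest in both libraries, at 8.09 and 5.03, and the Hoxb genes are nearly empty.

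Among posterior genes, Hoxc10, a gene used in hindlimb rather than forelimb development, had the highest promoter value of the family at start sites of the basic annotation. Its peak reached 8.09 in replicate 1 and 5.03 in replicate 2, at or above 92.1% and 90.8% of the peaks of those libraries. Of all coding promoters open in both libraries, 67.5% and 64.9% had values at or below it, so this Hox promoter stood moderately high among open promoters. The gene lies at chr15:102966796-102971893 on the plus strand, and the region open in both animals is 200 bp wide, upstream of the start site, outside UTRs. It holds 2 shared footprints, and the wider covers the AGNNGGC core.

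Hoxa10, which patterns the proximal hindlimb and the uterus, was next. Its values were 5.49 in replicate 1 and 4.8 in replicate 2, and the open region at chr6:52240441-52240660 lies wholly within an annotated UTR of the gene (chr6:52231197-52240854, minus strand). Hoxa9, a posterior gene with a known part in blood progenitors as well as in limbs, reached 3.59 and 3.09 (chr6:52223100-52231089). Hoxd9, its paralogue, reached 2.65 and 2.42 at chr2:74697727-74700208. All 3 were listed in both animals, and 48% and 61.7% of open coding promoters had values at or below that of Hoxa10, against 20.7% and 26.5% for Hoxd9.

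Hoxc13, known for its part in hair and nail keratin expression, had values of 2.47 and 1.89 at chr15:102921103-102928814. Hoxd10, which acts with its paralogues in the lower spinal cord and hindlimb, reached 3.4 in replicate 1 and was in the longer list alone in replicate 2, at 1.48. It was the sole Hox gene whose shorter-list peak came from replicate 1 alone. The paralogues used in the middle limb segment behaved otherwise: Hoxa11 had a peak in replicate 2 alone, at 1.54. Replicate 1 had no base at q of 0.05 or less within 500 bp of the Hoxa11 start site. Near the start site of Hoxd11, neither animal had such a base. Hoxc11 reached 2.15 in replicate 2, with a lowest q of 3.71e-95, and had no such base in replicate 1 within 500 bp of its start site, although the same 800 bp region overlaps a longer-list peak and 1 footprint of replicate 1 further into the gene. The q values here are the false discovery rates that the authors give base by base.

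The genes of the hand and foot plate, Hoxa13 and Hoxd13, were outside both shorter lists. Replicate 2 had longer-list peaks there of 0.716 and 0.789, with lowest q values of 0.00143 and 0.0095, and replicate 1 had none. Hoxc9 had a peak of 1.24 in replicate 2 alone. No base at q of 0.05 or less lay within 500 bp of the start sites of Hoxb9, Hoxb13, Hoxc12 and Hoxd12 in either library.

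By basic start sites, Hoxa4 had the highest promoter value of the central genes. It reached 4.57 and 2.89 at chr6:52191841-52192060, a region 88 bp from its start site that lies upstream of the gene (chr6:52189671-52191753) and outside UTRs. Hoxa7 reached 3.07 and 2.43 (chr6:52214491-52221854), and Hoxd8 reached 2.71 and 2.2 (chr2:74704615-74707933). All 3 values stood below the medians of 5.73 and 3.95 over the 11849 coding promoters open in both libraries. In Hoxa4 the shared footprint is 16 bp long and made of C and G alone, in a region that holds a GC box (GGGCGG on either strand), the sequence bound by Sp family factors:
Hoxa4: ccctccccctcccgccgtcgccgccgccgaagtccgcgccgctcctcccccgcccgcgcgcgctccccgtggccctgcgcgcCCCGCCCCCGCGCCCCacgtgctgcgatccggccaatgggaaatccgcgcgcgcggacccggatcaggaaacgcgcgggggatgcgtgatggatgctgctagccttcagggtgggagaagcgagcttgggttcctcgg

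Hoxa5, a central gene known from lung and skeletal patterning, had 2.69 in replicate 2 and a longer-list peak of 2.19 in replicate 1. Hoxa6 had 1.01 in replicate 2 with no listed base within 500 bp of its start site in replicate 1. Hoxb7 had 0.94 on the same terms. Hoxc5 had 1.16 in replicate 2 and 1.37 in the longer list of replicate 1. Hoxb5 was in both longer lists, at 1.16 and 1.5, and Hoxb8 in the longer list of replicate 2 alone, at 0.565. No base at q of 0.05 or less lay within 500 bp of the basic start sites of Hoxb4, Hoxb6, Hoxc4, Hoxc6, Hoxc8 and Hoxd4. This held in both libraries, although Hoxb6, Hoxc4, Hoxc6 and Hoxd4 had peaks elsewhere in their annotated spans.

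Anterior genes have their main embryonic roles in the hindbrain and neck. Hoxa3 reached 2.23 in replicate 2 and 2.11 in the longer list of replicate 1, at its one start site in the basic annotation, which lies between Hoxa6 and Hoxa7. Hoxd3 reached 1.94 in replicate 2 alone. Hoxa2, Hoxb1 and Hoxd1 had longer-list peaks in replicate 2 alone, of 0.808, 0.414 and 0.598. Hoxb2 and Hoxb3 had no listed base within 500 bp of a basic start site in either library. Replicate 2 had a peak of 0.854 in an exon within the annotated span of Hoxb2.

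Over the 9 genes open in both libraries, the median value was 3.07 in replicate 1 and 2.43 in replicate 2, and the medians of open coding promoters were 5.73 and 3.95. With the longer lists, 14 of 39 Hox genes were open in both libraries, against 59% of coding genes, and 13 were in neither. Those 13 had no base at q of 0.05 or less near a start site, which shows that no opening was detectable there and not that none existed. By the stricter q of 0.001, 10 Hox genes had such a base in replicate 1 and 18 in replicate 2, against 56.5% and 57.9% of coding genes. These are the same Hox genes that had a shorter-list peak. Every shorter-list peak in the Hox windows held a base at that q, so the counts are no separate measure.

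Across the cluster bodies, from the first to the last Hox gene, the libraries differed far more than across the genome. In Hoxa (chr6:52155590-52260880) replicate 1 had 10 peaks and replicate 2 had 44, covering 1.58% and 12.2% of the bases. In Hoxc (chr15:102921103-103036852) the counts were 7 and 31, covering 0.993% and 5.64%. Both clusters were dense in peaks in both animals, since peaks cover 0.343% and 0.425% of the genome in the same lists.

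In Hoxd (chr2:74668310-74765142) the counts were 4 and 7, covering 0.673% and 1.73% of the bases. In Hoxb (chr11:96194316-96368256) they were 2 and 6, covering 0.141% and 0.361%, which is below the genome's share in both libraries. The covered length in replicate 2 was thus 7.71 times that in replicate 1 in Hoxa, 5.68 times in Hoxc, 2.57 times in Hoxd and 2.55 times in Hoxb, and 1.24 times genome-wide. Bases at q of 0.001 or less gave ratios of 9.86, 8.49, 2.55 and 2.58 in the same order, against 1.34 genome-wide, and footprints gave 7.21, 5.75, 2.85 and 3.8 against 1.51.

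**Figure D3:**
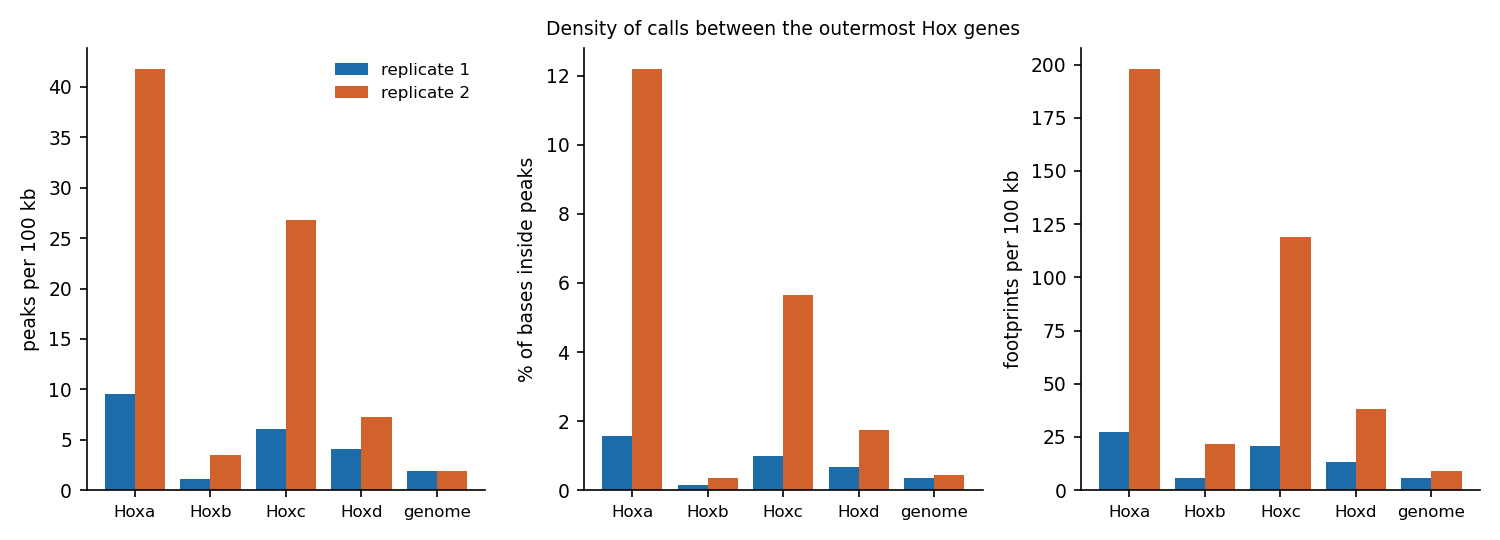
Peaks per 100 kb, percent of bases inside peaks, and footprints per 100 kb in each cluster body and in the genome, with 1 bar for each library. Replicate 2 exceeds replicate 1 in all 4 clusters, most in Hoxa (41.8 against 9.5 peaks per 100 kb), while the genome bars for peaks are 1.86 and 1.92.

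The excess of replicate 2 was greatest in the intervals from Hoxa7 to Hoxa10 and from Hoxc11 to Hoxc10. Between the start sites of Hoxa9 and Hoxa10 its peaks covered 35.6% of the bases, against 2.59% in replicate 1, and between Hoxa7 and Hoxa9 they covered 28.4% against 4.38%. The interval from Hoxc11 to Hoxc10 was covered to 30.4% by 15 peaks of replicate 2 and to 1.46% by 1 peak of replicate 1. Replicate 2 also covered 19.1% from Hoxa6 to Hoxa3 and 17.2% from Hoxa10 to Hoxa11, where replicate 1 had no peak. Shares near 10% stood in the intervals from Hoxa5 to Hoxa6, from Hoxa3 to Hoxa7 (10.5%) and from Hoxa11 to Hoxa13 (9.99%), against 0, 1.34% and 1.04% in replicate 1. The interval from Hoxd9 to Hoxd8 reached 8.87%, no interval of Hoxb passed 2.75%, and the long interval from Hoxd4 to Hoxd1 had no peak in either library.

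**Figure D4:**
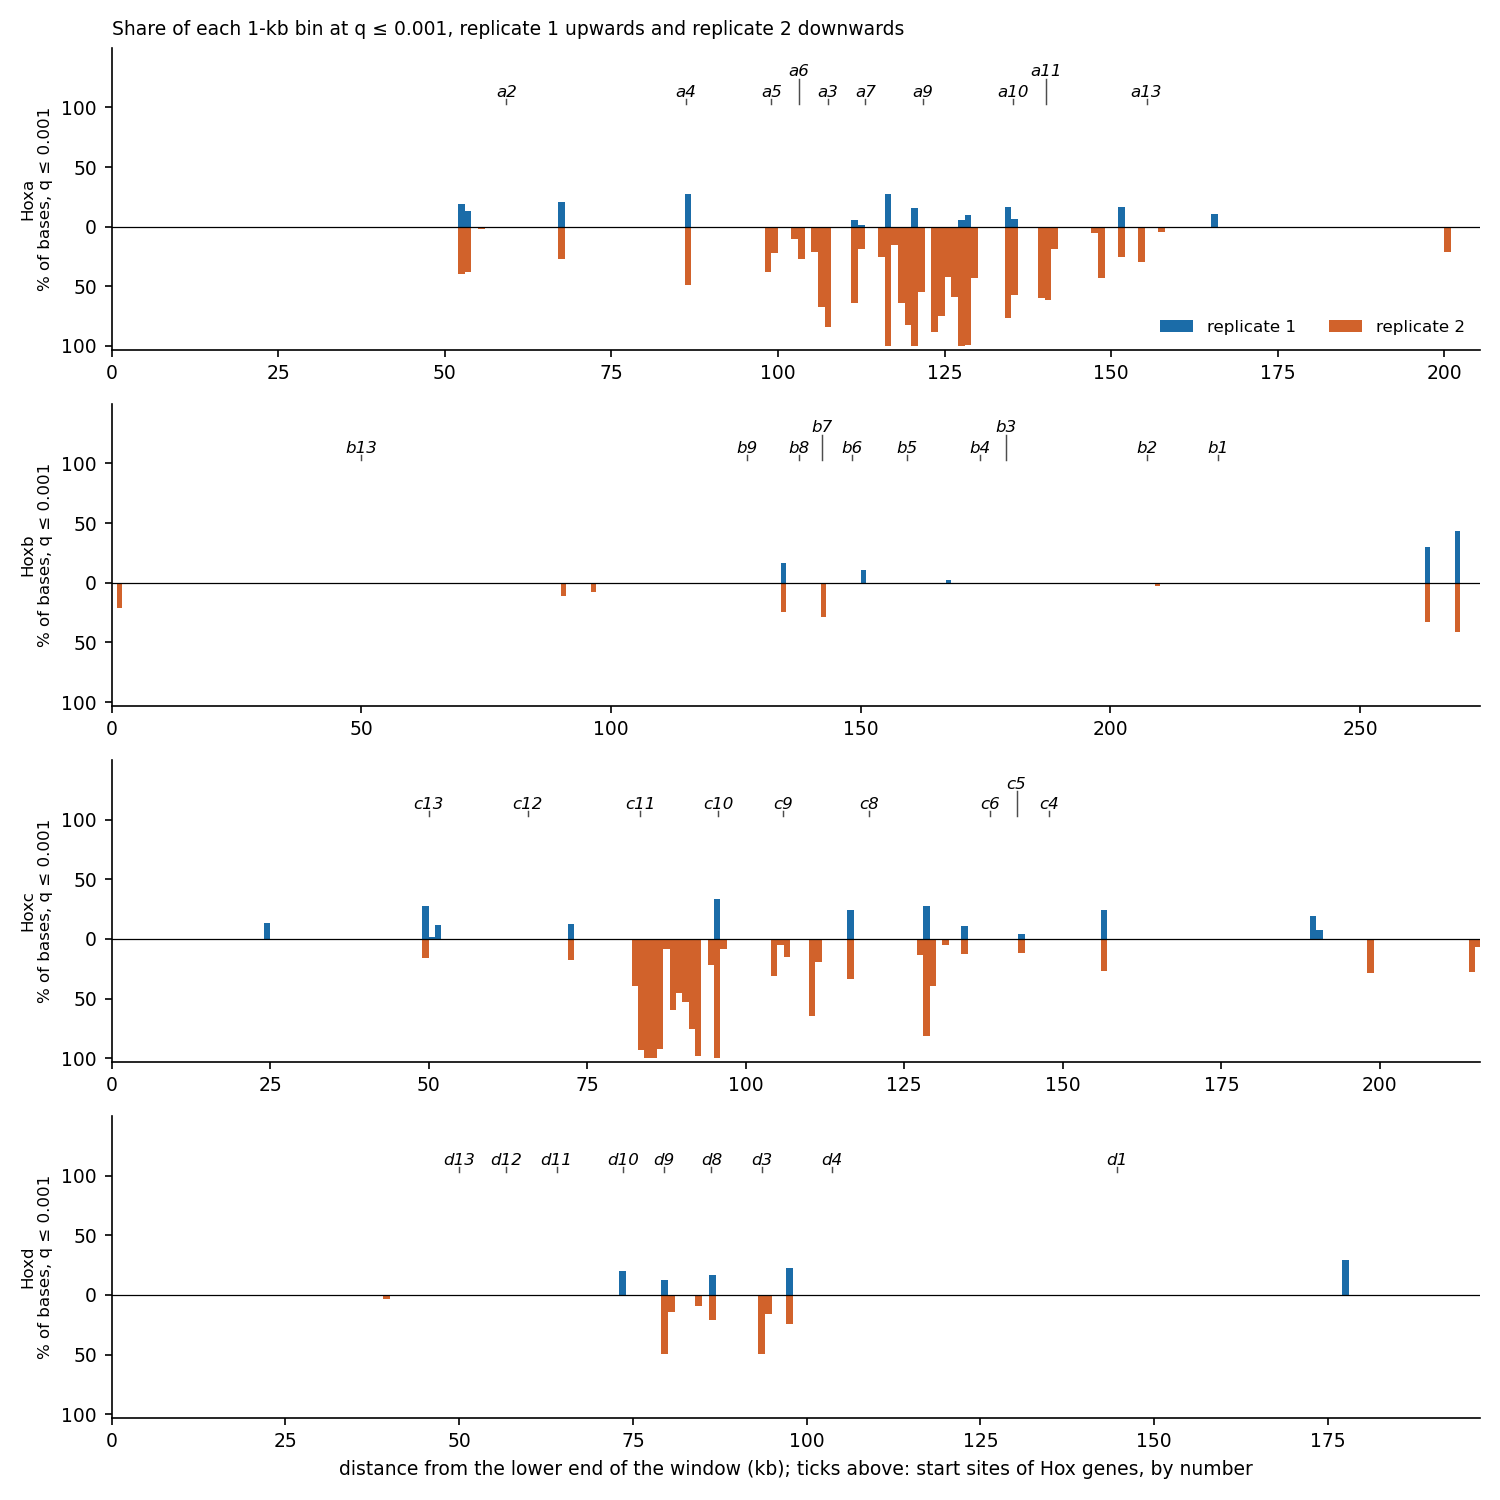
Percent of bases at q of 0.001 or less in 1-kb bins across each cluster and 50 kb on either side, replicate 1 drawn upwards and replicate 2 downwards, by distance in kb from the lower end of the window; ticks mark Hox start sites by number. Replicate 2 is densely covered from Hoxa7 to Hoxa11 and from Hoxc11 to Hoxc10, where replicate 1 has single narrow bins, and the flanks are nearly empty in both.

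In peak counts of the shorter lists the 50 kb flanks did not share the excess of the bodies. The Hoxa flank beyond Hoxa13 had 1 peak in each library and the flank at the other end had none. The Hoxc flanks had 4 peaks in replicate 1 and 3 in replicate 2, and the flank of Hoxb beyond Hoxb1 had 2 in each. The flank beyond Hoxd13 had no shorter-list peak in either library, although its footprints numbered 1 in replicate 1 and 14 in replicate 2. Its longer-list peaks numbered 1 and 9, and those beyond Hoxa13 numbered 3 and 8. Footprints in replicates 1 and 2 were 6 and 20 beyond Hoxa13, 6 and 13 beyond Hoxb1, and 4 and 18 beyond Hoxc4. Beyond Hoxd1 they were 3 and 2. The regions that replicate 2 alone listed in the bodies numbered 67, with a median value of 1.16. Of them, 39 were below the median of their list. Their median width was 194 bp. Both medians were above those of replicate-2-only regions of the whole genome, which had a median value of 0.605 and width of 153 bp. Of these 67, 7 overlapped a longer-list peak of replicate 1.

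Such an imbalance was not confined to the Hox clusters. Of 738 windows of 100 kb with at least 20 peaks in both libraries together, 87 (11.8%) had at least 4 times as many in replicate 2 as in replicate 1, the ratio reached by the bodies of Hoxa and Hoxc, and 0 had the reverse. Depth and library quality are not known from these files. Among cell type markers in the shorter lists, Pax7 and Myf5 were in replicate 2 alone, and Cdh5 of endothelium and Rgs5 of pericytes in replicate 1 alone (2.07 and 0.752). The 3 genes of fibro-adipogenic progenitors were in both. In the longer lists Cdh5 was in both libraries, with 1.14 in replicate 2, while Pax7, Myf5 and Rgs5 remained in 1 library. The part of these markers in the difference was not tested.

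**Figure D5:**
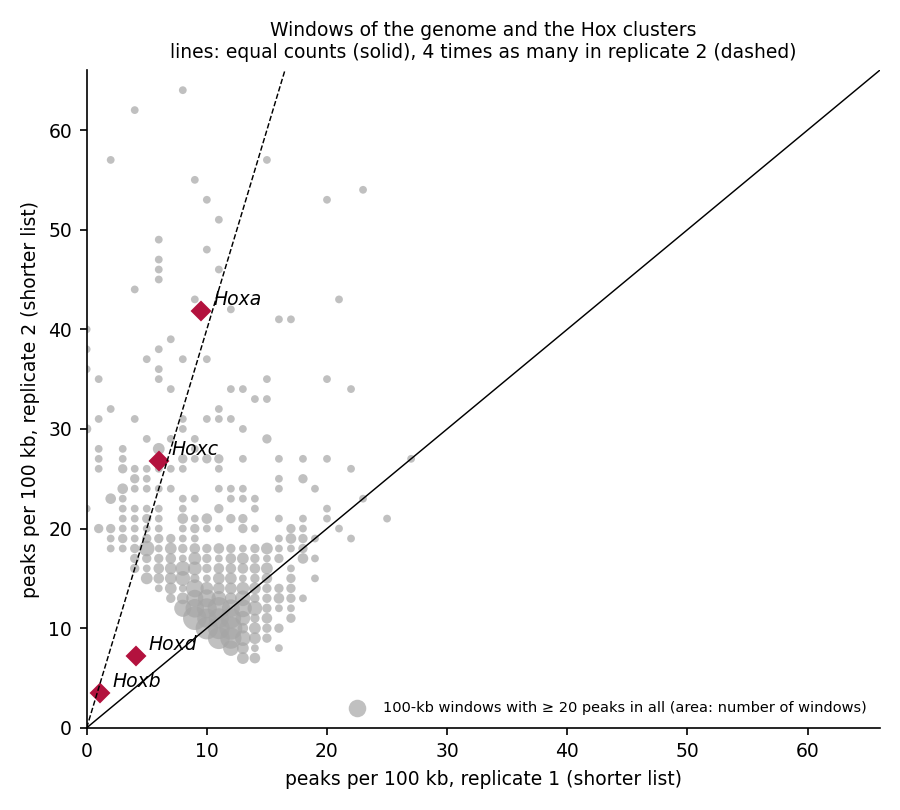
Peaks per 100 kb of the shorter lists in replicate 1 (horizontal) and replicate 2 (vertical), for the 738 windows of the genome with at least 20 peaks (grey, area by number of windows) and for the 4 cluster bodies (diamonds). Hoxa at 9.5 and 41.8 and Hoxc at 6.05 and 26.8 lie just above the dashed line of 4 times as many peaks in replicate 2, among a scatter of other windows.

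Regions listed in both animals were fewer. With flanks, the 31 peaks of replicate 1 and 95 of replicate 2 merged into 101 regions, of which 22 had a peak of both libraries, 8 had one of replicate 1 alone and 71 of replicate 2 alone. Genome-wide, 51.2% of merged regions had both. Of the 22, 14 lay at an annotated start site of a coding or non-coding gene, 7 were more than 1 kb from every start site, and 1 lay between these limits. Replicated regions numbered 8.55 per 100 kb in the body of Hoxa, 5.18 in Hoxc, 3.1 in Hoxd and 0.575 in Hoxb, against 1.23 genome-wide. Of 43 non-coding genes within the bodies, 6 had a promoter peak in both libraries and 5 in replicate 2 alone. Over all 33475 genes annotated as other than protein-coding, pseudogenes included, these shares were 7.42% and 1.3%.

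In Hoxa the 3 strongest replicated regions were the Hoxa10 promoter region, a region between Hoxa7 and Hoxa9 and the Hoxa4 promoter region. The second lies at chr6:52221701-52221940, at the start site of a longer annotated transcript of Hoxa7, with 154 bases of UTR. It reached 5.24 in replicate 1 and 5.45 in replicate 2, percentiles 85.2 and 92.2, above the 3.07 and 2.43 of the Hoxa7 promoter peak. It contains a narrower shared footprint with the AGNNGGC core. No replicated region of Hoxa lay more than 1 kb from a start site.

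In Hoxc, the strongest region was at Hoxc10, followed by 2 intronic regions. One lies between Hoxc9 and Hoxc8 at chr15:102987501-102987700, 2907 bp from the start site of Hoxc8, and in the annotation it falls in an intron of Hoxc5, whose longest transcript begins near Hoxc10. Its values were 5.42 in replicate 1 and 6.69 in replicate 2, and the latter is the highest of any Hox region in that library. It carries 4 shared footprints, in capitals, the longest of which is the AGNNGGC site shown above:
Hoxc9 to Hoxc8: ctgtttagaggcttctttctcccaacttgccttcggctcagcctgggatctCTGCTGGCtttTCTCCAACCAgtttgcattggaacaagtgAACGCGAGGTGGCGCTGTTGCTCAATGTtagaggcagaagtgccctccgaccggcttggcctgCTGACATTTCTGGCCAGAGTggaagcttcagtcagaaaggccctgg

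The other intronic region of Hoxc lies at chr15:102999041-102999600 in Hoxc6, a central gene, 784 bp from one of its annotated start sites. It reached 5.77 and 3.58, although the basic start site of Hoxc6 itself had no listed base. It was the 1 of 22 Hox regions (4.55%) that held CATGCGC, the core of the sequence bound by NRF1, a share near the 3.37% of regions genome-wide. The word lies in a shared footprint of this region and was searched in addition to the 7 motifs of the main search. The next distal regions of Hoxc were weaker, one in an intron of Hoxc4 at chr15:103027354-103027624 with 2.02 and 1.81, and one in an intron of Hoxc6 at chr15:103005528-103005650 with 1.6 and 1.52.

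The strongest region of Hoxd, at chr2:74715847-74716040, lay at the start of the antisense transcript Hoxd3os1, between the basic start sites of Hoxd8 and Hoxd4. It falls within the annotated spans of Hoxd3 and Hoxd4, 3920 bp from the nearest basic Hox start site, that of Hoxd3. It reached 4.81 in replicate 1 and 3.14 in replicate 2, above Hoxd9 and Hoxd8, and it holds a single shared footprint of 32 bp, the widest inside the 22 replicated regions:
Hoxd3os1: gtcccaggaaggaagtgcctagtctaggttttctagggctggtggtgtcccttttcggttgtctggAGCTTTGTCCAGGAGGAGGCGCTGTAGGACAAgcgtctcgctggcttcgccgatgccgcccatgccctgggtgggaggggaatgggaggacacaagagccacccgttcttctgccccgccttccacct

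Hoxb had a single replicated region in its body. It lies between Hoxb9 and Hoxb8 at chr11:96278901-96279060, 2845 bp from the start site of Hoxb8, in no annotated gene, and reached 2.34 and 2.2. The sole site open in both animals inside this cluster thus also carried the AGNNGGC core in a shared footprint:
Hoxb9 to Hoxb8: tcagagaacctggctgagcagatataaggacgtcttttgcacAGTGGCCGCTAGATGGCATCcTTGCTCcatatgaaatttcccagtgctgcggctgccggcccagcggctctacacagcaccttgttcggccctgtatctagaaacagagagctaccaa
Beyond Hoxb1, 2 regions of the flank were open in both animals, at chr11:96413641-96413920 with 3.37 and 2.07 and at chr11:96407781-96408020 with 1.95 and 1.7, at 47889 and 42029 bp from the Hoxb1 start site.

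The 7 replicated Hox regions with the AGNNGGC core in a shared footprint had a median lower percentile, the lower of a region's ranks in the libraries, of 85.2, ranging from 63.5 to 90.8. For the other 15 it was 68.2, from 44.3 to 83.7. The same split over the genome gave medians of 66.8 for 7052 regions and 55.4 for 25610. The ranges in the Hox windows overlap: the regions at Hoxb9 to Hoxb8 and at Hoxa11 to Hoxa13, at 63.5 and 68, lay below the median of the other 15. The 15 include regions with no shared footprint, so the groups also differ in that. The core was chosen after sequences of the strongest regions had been seen, so the split in the Hox windows is not independent of these ranks.

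Counting footprints, replicate 1 had 100 in the 4 windows and replicate 2 had 495. Of those of replicate 1, 59 overlapped one of replicate 2 (59%), against 52.2% genome-wide. Of those of replicate 2, 54 overlapped one of replicate 1 (10.9%), against 33.1% genome-wide. The footprints shared were 22 of 35 in Hoxa, 12 of 17 in Hoxb, 18 of 31 in Hoxc and 7 of 17 in Hoxd by the lists of replicate 1. Footprints carry the same score throughout and were used by position alone.

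Words known to be bound by factors of several families were searched in 200 bp at the centre of the 22 replicated Hox regions, on both strands. The GC box was in 8 of 22 (36.4%) and in 34.8% of the genome's replicated regions, and the E-box CAGCTG, bound by myogenic factors such as MyoD, was in 5 of 22 (22.7%) and 19.8%. Words bound by HOX proteins and their partners were rare: TAATTA, the homeodomain word, was in 0 of 22 and 1.17%, the HOX-PBX word TGATTNAT in 0 of 22 and 1.13%, and the MEIS word TGACAG in 1 of 22 and 12.9%. The AP-1 word TGANTCA was in 1 of 22 and 6.59%. The CTCF core consensus of 12 letters, matched exactly, was in 0 of 22 and 7.52%, and with 1 mismatch allowed in 4 of 22 (18.2%) and 19.9%.

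Genes for proteins that act with or on Hox genes were mostly open, as CpG-rich promoters are in general. Of 9 genes for HOX cofactors, the PBX, MEIS and PKNOX proteins that bind DNA together with HOX proteins, 8 had a promoter peak in both libraries, and Meis3 had one in replicate 1 alone. Pknox1 was the strongest of them at 12.4 and 8.08, and Meis1 reached 3.65 and 3.35. Of 19 chromatin regulators of Hox genes, 18 were open in both. The CpG-rich promoters, 6 of the cofactors and 18 of the regulators, were all among those open in both, where the share over all CpG-rich coding promoters is 87%, so these counts lie near the background. Kmt2a, the Trithorax methyltransferase, reached 14.3 and 9.71. Cbx8, a Polycomb reader, reached 15.4 and 8.75, and Kdm6a, a demethylase that removes the Polycomb mark, reached 11.5 and 6.62. Kdm6b, a related demethylase, had no promoter peak in either library, at a promoter with a CpG ratio of 0.172.

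Of 10 genes next to the clusters 9 were matched, and 5 had a promoter peak in both libraries, a share near the 54.2% of all coding genes. Among them were Skap2 (14 and 8.02), Hibadh (11.3 and 8.86) beyond Hoxa13 and Calcoco1 (8.81 and 5.6) beside Hoxc. All 3 exceeded every Hox promoter in both libraries. The homeobox genes Evx1 and Evx2, which sit beside Hoxa13 and Hoxd13, had none in either shorter list, and nor did Skap1 and Smug1. In the longer lists Evx2 had a peak of 0.808 in replicate 2 alone and Skap1 one of 0.333 in replicate 1 alone. Evx1 and Smug1 had none there. Of the ParaHox genes, an evolutionary sister group of the Hox genes, Gsx1 was open in both at 1.1 and 0.749 and Cdx2 and Pdx1 in neither. Of 5 regulators of axial position and limb identity, Gdf11 was open in both at 1.36 and 0.821. Pitx1 and Tbx4, which specify the hindlimb, were in both longer lists alone, at 0.888 and 0.821 and at 0.764 and 0.736. Tbx5, which acts in the forelimb, was in the longer list of replicate 1 alone at 0.53, and Cdx4 in none.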

How the data were processed

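Per the labels, the submitters deposited DNase-seq files for 2 gastrocnemius libraries on mm10: a shorter and a longer peak list, footprints and a table of false discovery rates per library, each given per sample. No source used here gives the aligner, the callers, their versions or the depth. The deposited peak lists give a signal per peak (the authors' value, used to rank peaks within a library), the deposited footprints a score that is the same throughout, and the deposited rate tables a q-value for runs of bases. Within the Hox windows, every shorter-list peak held a base at q of 0.001 or less, and every longer-list peak one at 0.05 or less.

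The members, gene lists and rules were chosen with earlier results of these data known. Start sites came from the GENCODE M21 basic annotation, and a promoter was 500 bp either side. Neighbouring genes can share a window. Peaks of both libraries were merged by an overlap of at least 1 bp, and a region with a peak of each was called replicated. Sequence was read from the mm10 RefSeq assembly. The animals are F1 hybrids while the coordinates are of this one reference, and no allele was used. All 39 members are counted, and some items that the rule would name, 1 member among them, are not reported here. Per cluster the 3 strongest replicated regions and up to 3 distal ones were named. From other lists, up to 3 members with the highest lower percentile and up to 3 without a peak were named, with others chosen after their values were seen. Interval and motif functions were tested on simulated data. Python 3.11.15 with numpy 2.4.6 and matplotlib 3.10.9 was used. No test or p-value was computed. Alternatives are in the closing section.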

Additional observations from a re-analysis of the deposited data

How the results depend on the processing

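Of 47 values recomputed under other settings, 35 stayed within 1.5 times the reported count. The 9 Hox genes open in both libraries were the same 9 with promoter windows of 250 or 1000 bp, with all annotated start sites and with peaks at or above their list's median, and became 14 with the longer lists, which added Hoxa3, Hoxa5, Hoxb5, Hoxc5 and Hoxd10 and took Hoxb from 0 to 1. With 1 library left out, the count of open Hox genes was 10 to 18 (5 to 9 in Hoxa, 0 to 1 in Hoxb, 2 to 5 in Hoxc, 3 to 3 in Hoxd), regions were 31 to 93 in place of 22, and footprints were 100 to 495 in place of 59, since nothing then had to be shared. The longer lists gave 48 replicated regions. A reciprocal overlap of at least 50% left 33 shared footprints and 16 regions. The CTCF consensus was matched in 4 regions with 1 mismatch and in 0 without, a setting added after the data were seen. No paired analysis was possible because the series has 1 group. Depth is unknown, so a promoter without a peak may be open below what these libraries could list.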

Other observations

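Among the non-coding genes of the 4 cluster bodies, 32 of 43 had no promoter peak in either library. In Hoxa, Gm15050, an antisense transcript between Hoxa2 and Hoxa4, had its own region at chr6:52172621-52172840 with 2.49 in replicate 1 and 1.78 in replicate 2, and 9530018H14Rik, beside Hoxa13, reached 2.64 and 2.92 at a region with the AGNNGGC core in a shared footprint. In Hoxd, Gm28793 shared the Hoxd9 region, and Hoxd3os1 has been described above. Mir196b, the microRNA between Hoxa9 and Hoxa10 whose family targets Hox transcripts, had a promoter peak in replicate 2 alone, at 2.16. The region of this peak also covers an annotated start site of Hoxa9. Hoxa11os, the antisense transcript of Hoxa11, had a promoter peak in replicate 2 alone, at 1.54, the same peak as that of Hoxa11. No non-coding gene of Hoxb or Hoxc had one in either library.

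Regions that replicate 1 alone listed numbered 8 in the 4 windows. The Hoxd10 promoter region, at 3.4 in replicate 1, was the highest of them. An intronic region of Hoxb6 at chr11:96294660-96294765, at 1.44, held 2 shared footprints although replicate 2 had no shorter-list peak there.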
